A study of Hordeum vulgare with 6 samples.

Results

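*HvSHI* and *HvDL* are barley genes for transcription factors. The study links *HvSHI* to growth of the awn only, and *HvDL* to growth of both the awn and the lemma. The lemma is the outer of the paired bracts that enclose the cereal floret, and the awn is the bristle that grows from its tip. They were taken by identifier as 2 of the 26933 genes in the deposited expression table, HORVU.MOREX.r3.7HG0725250 on chromosome 7H (*HvSHI*) and HORVU.MOREX.r3.4HG0396510 on chromosome 4H (*HvDL*). RNA-seq was made from 3 *mads1* and 3 wild-type (WT) samples at W7.5, a stage of inflorescence development on Waddington's scale. The *mads1* plants carry a CRISPR-Cas9 knockout of *HvMADS1*, the WT plants do not, and both were cv. Golden Promise under normal growth. Each sample was a pool of many plants, so plant-to-plant differences are averaged within a library. The methods describe the tissue as lemma and awn, and the labels as spikelet. The study made several *mads1* alleles, and which of them was sequenced is not given in the sources used here. The level of *HvMADS1* itself was not analysed here, since no table used here pairs its name with an identifier, so the knockout was not checked in these libraries.

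*HvMADS1* belongs to the E class (SEPALLATA-like) of MADS-box factors, which work in complexes with other floral factors and bind short A/T-rich DNA motifs called CArG-boxes. SHI proteins (SHORT INTERNODES) are zinc-finger transcription factors of a plant-specific family, known in *Arabidopsis* for activating auxin biosynthesis genes and for style and leaf development. In barley, the study treats *HvSHI* itself as a strong candidate gene for *Lks2*, a short-awn trait. *DL* (DROOPING LEAF) encodes a YABBY transcription factor, and in rice it is known for carpel identity and for the midrib of the leaf. The question of the comparison was which genes change their transcript level when *HvMADS1* is lost.

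The study reports binding of HvMADS1 at both genes from CUT&Tag, ChIP-qPCR and a gel-shift assay, and activation of both promoters in a luciferase assay. It also reports both transcripts as lower in *mads1* lemma and awn, from this RNA-seq and from separate expression measurements. Those measurements covered W7.5 and also an earlier and a later stage. The sequences compared here are only the probes of the gel-shift assay, designed from the promoter of each gene. They are shown to compare their A/T-rich stretches, with the longest unbroken run of A and T in capitals:
HvSHI probe: tcagtgAAAAATTcctccct
HvDL probe: tataacAAAATTATgtaaac
Each probe has 20 bases. The run has 7 bases in the *HvSHI* probe and 8 in the *HvDL* probe, and A or T make up 12 of the 20 bases in the *HvSHI* probe and 17 in the *HvDL* probe. The study describes the probes of both genes as holding a CArG-box. Only a single form of its consensus was scored here (a pair of C, a stretch of A or T, a pair of G). Against this form, the best window of 10 bases on either strand matched at 6 positions in the *HvSHI* probe and at 8 in the *HvDL* probe. Other forms of the CArG-box were not scored, so these counts do not show that a probe lacks one. The form scored reads the same on both strands. In the *HvSHI* probe that best match was shared by windows at different positions, so none was singled out. Promoter sequences were not used here, so how common such a match is among barley promoters was not computed.

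The guides used to knock out *HvMADS1* set the target sites, which the study places in exon 1. Each allele it describes has an insertion or deletion that causes a premature stop codon. Guide 1 can be placed on the coding sequence through the start of that sequence in the study's cloning primers. Capitals mark the start codon in the coding sequence and the bases of guide 1 that overlap the primer:
HvMADS1 coding start: ATGggtcgtgggaaggtgg
HvMADS1 guide 1: TGGGAAGGTGGagatgagg
HvMADS1 guide 2: tcgccctcatcatcttctc
Guide 1 shares 11 bases with the end of the primer, so it covers coding bases 9 to 27, counted from the A of the start codon. This is the very start of the MADS domain, which binds DNA. Guide 2 has no overlap with the primer and was not placed.

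The values are FPKM, fragment numbers scaled to gene length and to library size, so levels can be compared between genes. They sum to 939663 to 966119 per *mads1* library and to 993575 to 994495 per WT library. The number of reads behind a library is unknown, so no counting interval could be given. The test was limma's on log2(FPKM + 1), fitted to the 17996 genes that reached 1 FPKM in 3 or more of the 6 libraries. Calls needed a Benjamini-Hochberg adjusted p under 0.05, taken over all genes tested, together with a fold change of 1.5 or more. By this rule 14.5% of the genes tested were lower and 6.6% higher in *mads1*, 21.1% in all, and by the adjusted p alone 22.3% were lower and 43.2% passed in either direction. Fold changes are given on this log2 scale, *mads1* over WT.

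*HvSHI* was lower in *mads1*, at 18.9, 18.1 and 14.3 FPKM in the *mads1* libraries, against 57.5, 61.2 and 63.4 FPKM in the WT libraries. The genotypes did not overlap, and 38.6 FPKM separated the highest *mads1* library from the lowest WT library. Of all genes tested, 26.5% also had every *mads1* library below every WT library. The means were 17.1 ± 2.44 FPKM in *mads1* and 60.7 ± 2.99 FPKM in WT (SD, n = 3 each), so the *mads1* mean was 28.1% of the WT mean. The log2 fold change of *HvSHI* was -1.78 (standard error 0.11, 95% interval -2.03 to -1.53, adjusted p = 1.26e-05 from limma). This whole interval lies beyond the limit on fold change, which is 0.585 on the log2 scale.

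*HvDL* was also lower in *mads1*, by less. It was at 53.9, 49.8 and 65.7 FPKM in the *mads1* libraries, against 80.6, 96.4 and 96.5 FPKM in the WT libraries. Again no *mads1* library reached a WT library, with a gap of 14.9 FPKM between *mads1* replicate 3 and WT replicate 1. The means were 56.5 ± 8.25 FPKM in *mads1* and 91.1 ± 9.14 FPKM in WT (SD, n = 3 each), so *mads1* kept 62.0% of the WT mean. The log2 fold change of *HvDL* was -0.69 (standard error 0.12, 95% interval -0.95 to -0.42, adjusted p = 0.00225 from limma). *HvDL* therefore passed the limit of 0.585, but its interval also holds falls smaller than the limit. For each gene alone, the two-sided exact permutation test over libraries gave p = 0.1, the smallest that 3 against 3 allows. These are bulk samples, so fewer cells that express a gene and less RNA per cell cannot be told apart.

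**Figure D1:**
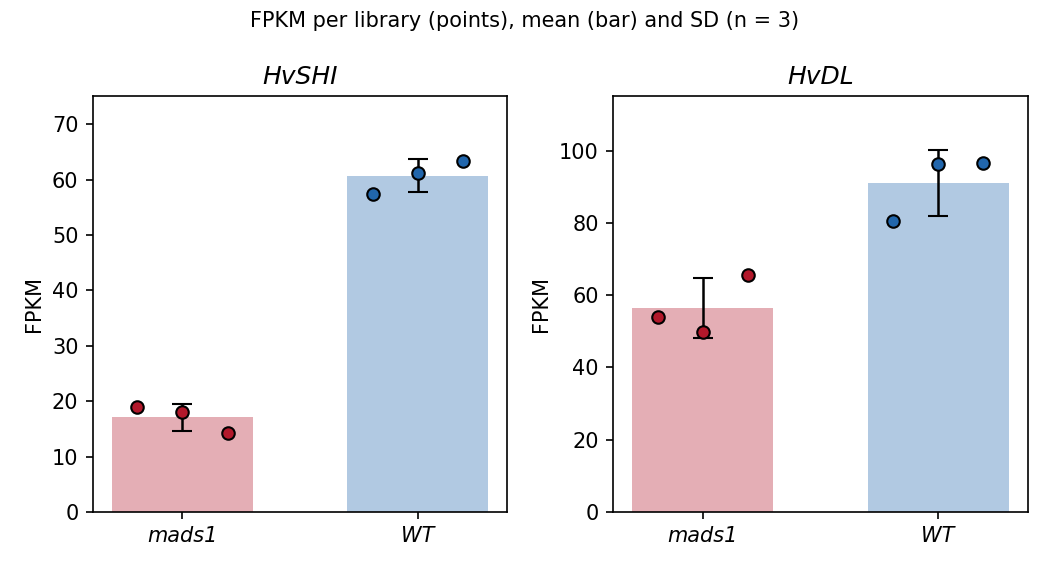
FPKM of *HvSHI* (left) and *HvDL* (right) in *mads1* and WT, with each library as a point, the mean as a bar and the SD as an error bar (n = 3 each). All 3 *mads1* points lie below all 3 WT points for both genes, with a gap of 38.6 FPKM for *HvSHI* and 14.9 FPKM for *HvDL*.

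The spread within a genotype was alike for both genes in *mads1* and smaller for *HvSHI* in WT, which was not tested. The coefficient of variation of *HvSHI* was 14.3% in *mads1* and 4.93% in WT, and that of *HvDL* was 14.6% in *mads1* and 10.03% in WT. The median over the genes tested was 10.4% in *mads1* and 8.49% in WT. Of these genes, 24.9% varied less than *HvSHI* among the WT libraries, and 58.2% varied less than *HvDL*. Among the *mads1* libraries, 65.5% varied less than *HvSHI* and 66.6% varied less than *HvDL*. In *mads1* the libraries did not rank the genes alike. Replicate 3 had the lowest *HvSHI* (14.3 FPKM) and the highest *HvDL* (65.7 FPKM), while WT replicate 1 had the lowest value of both genes among WT libraries.

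Because both genes were read in the same library, the level of *HvSHI* relative to *HvDL* does not depend on how libraries are scaled against each other. *HvSHI* was at 34.96%, 36.3% and 21.8% of the *HvDL* FPKM in the *mads1* libraries, against 71.3%, 63.5% and 65.7% in the WT libraries. *HvDL* was thus the more abundant transcript in each of the 6 libraries, and *HvSHI* was a smaller share of *HvDL* in each *mads1* library than in any WT library. On the log2 scale the ratio averaged -1.67 ± 0.40 in *mads1* and -0.58 ± 0.09 in WT (SD, n = 3 each), a difference of -1.09. The exact two-sided permutation test of this difference gave p = 0.1, again the smallest possible. With each library left out in turn the difference was -1.22 to -0.87, and it came nearest to 0 without *mads1* replicate 3.

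**Figure D2:**
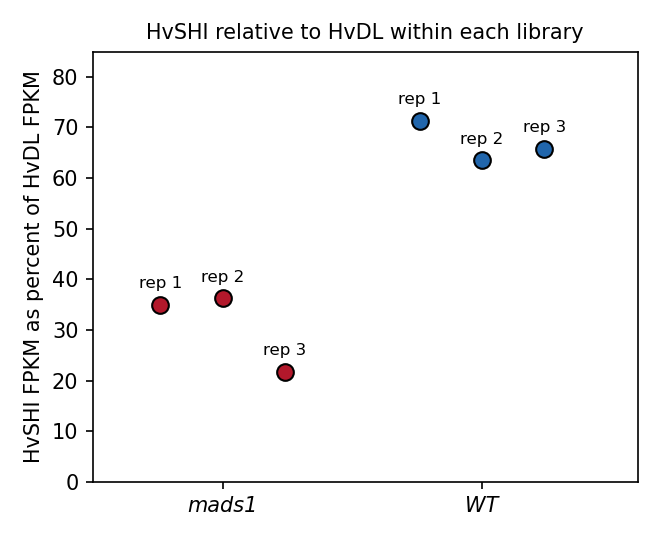
FPKM of *HvSHI* as a percent of the FPKM of *HvDL* in the same library, for the *mads1* and WT replicates. The *mads1* points lie between 21.8% and 36.3%, and the WT points between 63.5% and 71.3%.

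Among all genes of the table both stood above the median, which includes genes at 0. That median FPKM over all 26933 genes was 5.61 in *mads1* and 6.20 in WT. *HvSHI* stood above 65.7% of genes in *mads1* and above 88.2% in WT, with rank 9245 from the top in *mads1* and rank 3166 in WT. *HvDL* stood above 87.4% of genes in *mads1* and above 92.7% in WT, with rank 3402 in *mads1* and rank 1968 in WT. Over the 17996 genes tested the median was higher, 17.95 FPKM in *mads1* and 18.4 FPKM in WT, and the *HvSHI* mean in *mads1* (17.1 FPKM) was below it. In *mads1*, *HvSHI* thus moved much further down the order of genes than *HvDL* did.

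By size of change the genes were far apart. A larger fall than that of *HvSHI* was found for 542 of the 17996 genes tested (3.01%), all of them called lower. It was larger than that of *HvDL* for 2337 genes (13.0%), of which 2291 were called. Among the 2607 genes called lower, whose median log2 fold change was -1.12, 79.2% fell by less than *HvSHI* and 12.1% by less than *HvDL*. The median over all genes tested was 0.05. Ordered by the p of limma's test, *HvSHI* was at place 214 and *HvDL* at place 2789 of the 17996.

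**Figure D3:**
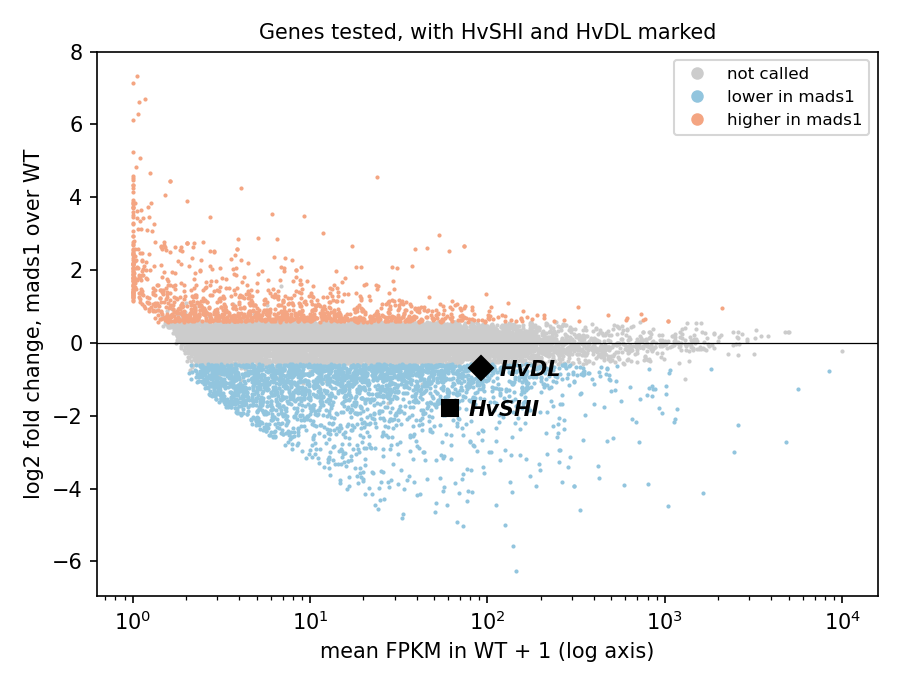
Log2 fold change (*mads1* over WT) against mean FPKM in WT plus 1 on a log axis, for the 17996 genes tested, with called genes coloured, *HvSHI* as a square and *HvDL* as a diamond. *HvSHI* lies at -1.78 inside the cloud of lower genes, and *HvDL* lies at -0.69 close to its upper edge.

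Both genes are in the flower development group that the study listed from its bound and changed genes. The study chose this group on these samples, so the direction of its genes is not independent evidence. All 6 genes of the group were tested and called, 5 lower and 1 higher, against 14.5% lower and 6.6% higher over all genes tested, with a median log2 fold change of -0.80. *EMF2B* (HORVU.MOREX.r3.2HG0095780), a Polycomb gene whose *Arabidopsis* counterpart represses flowering, was the one gene that fell more than *HvSHI*. It was at 3.16, 3.42 and 4.02 FPKM in *mads1*, against 18.1, 18.3 and 18.5 FPKM in WT, with a log2 fold change of -2.09. The E-class gene *MADS5* (HORVU.MOREX.r3.7HG0654930) was at 9.07, 10.7 and 9.80 FPKM in *mads1*, against 24.3, 17.9 and 16.6 FPKM in WT (-0.91 on the log2 scale). *EMF2B* and *MADS5* did not overlap between genotypes, where 26.5% of all genes tested had every *mads1* library below every WT library. Both were less abundant than *HvSHI* in each WT library.

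*INT-M* (HORVU.MOREX.r3.5HG0525620), an AP2-like gene of the inflorescence meristem, was the gene that rose. It was at 37.6, 29.7 and 43.5 FPKM in *mads1*, against 19.9, 25.0 and 24.9 FPKM in WT, with a log2 fold change of 0.63. Over all genes tested, 29.4% had every *mads1* library above every WT library, as *INT-M* had. Its call was lost without *mads1* replicate 3 (0.51) and without WT replicate 1 (0.53). In *mads1*, *INT-M* was above *HvSHI* in each library, and in WT it was below *HvSHI* in each library. *HvDL* was the most abundant gene of the group by its WT mean.

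*MADS2* (HORVU.MOREX.r3.3HG0307160), the last gene of the group, is a B-class gene, and in rice its counterpart is known for lodicules and stamens, organs of the spikelet other than lemma and awn. It was at 6.86, 7.44 and 6.45 FPKM in *mads1*, against 13.3, 10.8 and 11.4 FPKM in WT. *MADS2* was thus detected in all 6 libraries, and it was lower in *mads1* (log2 fold change -0.69, 95% interval -0.95 to -0.44, adjusted p = 0.00173 from limma). The study listed *MADS2* because it was bound and changed, so its fall is no measure of how much of those organs the samples held. The part of other spikelet organs in the change of *HvSHI* and *HvDL* was not tested. Marker genes of the carpel and of the awn were not analysed here, because no table used here names them by these identifiers.

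From the study's list of genes bound by HvMADS1 and changed, words for transcription factors and DNA binding in the annotations picked out 53 genes, *HvSHI* and *HvDL* included. Of the 49 that were tested, 44 were lower, 4 were higher and 1 was not called, with a median log2 fold change of -1.16, against 14.5% lower and 6.6% higher over all genes tested. The whole list was much alike, with 450 lower and 64 higher of its 541 tested genes and a median of -1.14. The study selected these genes for their change, so the counts only place the genes. Of the 49, 13 fell more than *HvSHI* and 41 fell more than *HvDL*. By WT mean, 6 of them were above *HvSHI*, with *HvDL* one of these, and 4 were above *HvDL*. *HvDL* was thus among the most abundant and the least changed of these genes.

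The genes with the most similar pattern were found by Pearson's r of log2(FPKM + 1) with each gene over the 6 libraries, as a description without a test. Since the genotypes form separate groups, r mostly follows the difference between them. An r above 0.95 with *HvSHI* was reached by 1719 of 17995 other genes (9.55%), and with *HvDL* by 309 (1.72%). The gene most like *HvSHI* was HORVU.MOREX.r3.3HG0299150, which no table used here names. It was at 70.1, 64.2 and 51.8 FPKM in *mads1*, against 255, 273 and 276 FPKM in WT, and like *HvSHI* it was lowest in *mads1* replicate 3 and WT replicate 1 of each genotype. Annotations were used only for the genes that the study listed as bound and changed. Among these, a basic helix-loop-helix gene (HORVU.MOREX.r3.7HG0682660), an NPH3-family gene (HORVU.MOREX.r3.2HG0210650) and a RING/FYVE/PHD zinc-finger gene (HORVU.MOREX.r3.1HG0061660) came next. Their log2 fold changes were -1.91, -2.27 and -3.33, and each was lowest in *mads1* replicate 3, as *HvSHI* was.

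The gene most like *HvDL* was HORVU.MOREX.r3.5HG0420420, also without a name here, at 17.6, 16.7 and 20.8 FPKM in *mads1*, against 24.8, 27.3 and 27.9 FPKM in WT. Its log2 fold change of -0.52 was within the limit on fold change, so it was not called, although its adjusted p was 0.00438 from limma. The listed genes most like *HvDL* were a UDP-glycosyltransferase gene (HORVU.MOREX.r3.7HG0673700, -1.18 on the log2 scale), the gene of a GTP-binding HflX protein (HORVU.MOREX.r3.4HG0360060, -0.78) and an RNA-binding adenosine deaminase gene (HORVU.MOREX.r3.2HG0214290, -0.59). Each of these was highest among *mads1* libraries in replicate 3, as *HvDL* was. The adenosine deaminase gene lost its call under 5 of 15 alternatives, where its log2 fold change was -0.56 to -0.46.

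To see whether the falls extended along the chromosome, the 5 listed genes on each side of each gene were read in the order of their identifiers. Around *HvSHI*, 8 of the 10 neighbours were tested. Of these, 2 were lower, none was higher and 6 were not called, with log2 fold changes of -0.86 to 0.40 and a median of -0.15. With 14.5% of all genes tested called lower, 2 of 8 is no mark of this window. Of the 6 not called, 2 had an adjusted p below 0.05 from limma and a change within the limit on fold change. With quantile normalization 1 of the neighbours was called. Around *HvDL*, 8 of the 10 were tested, with log2 fold changes of -0.53 to 0.46 and a median of 0.11. None of these 8 was called, against 21.1% of all genes tested. However, 5 of them had both an unadjusted and an adjusted p below 0.05 from limma, and the limit on fold change alone kept them from a call, where 43.2% of all genes tested passed by the adjusted p alone. Without *mads1* replicate 2 there was 1 call, and without WT replicate 3 there was also 1. In each window the central gene therefore had the largest fall of those tested, although the neighbour of *HvDL* at -0.53 had an interval that overlapped that of *HvDL*. The distances in bases between these genes were not used here, and none of the 20 neighbours is named in the tables used here. The study's identifier for *HvMADS1*, in another format, places it on chromosome 4H, where *HvDL* also lies. Whether the edited *HvMADS1* lies in or near the window of *HvDL* was not determined here.

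**Figure D4:**
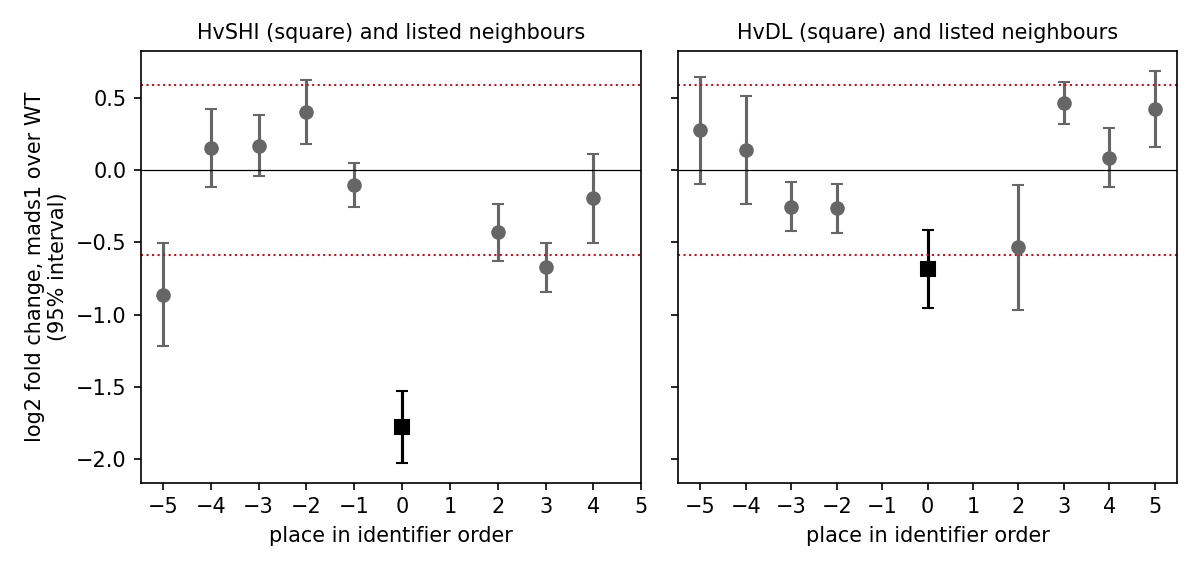
Log2 fold change (*mads1* over WT) with its 95% interval for *HvSHI* (left) and *HvDL* (right) as squares at 0, and for the tested genes among the 5 listed on each side as circles, in identifier order. Dotted lines mark the limit on fold change, 0.585 in either direction. The 8 tested neighbours lie between -0.86 and 0.40 around *HvSHI* and between -0.53 and 0.46 around *HvDL*.

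Both calls were recomputed under 15 alternatives. *HvSHI* was called lower under each of them, with log2 fold changes of -1.85 to -1.66 and an adjusted p of at most 0.000153 from limma. *HvDL* was also called lower under each of them, with log2 fold changes of -0.80 to -0.60 and an adjusted p of at most 0.0134. *HvDL* came closest to the limit of 0.585 without *mads1* replicate 2 (-0.60), the library with the lowest *HvDL*.

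**Figure D5:**
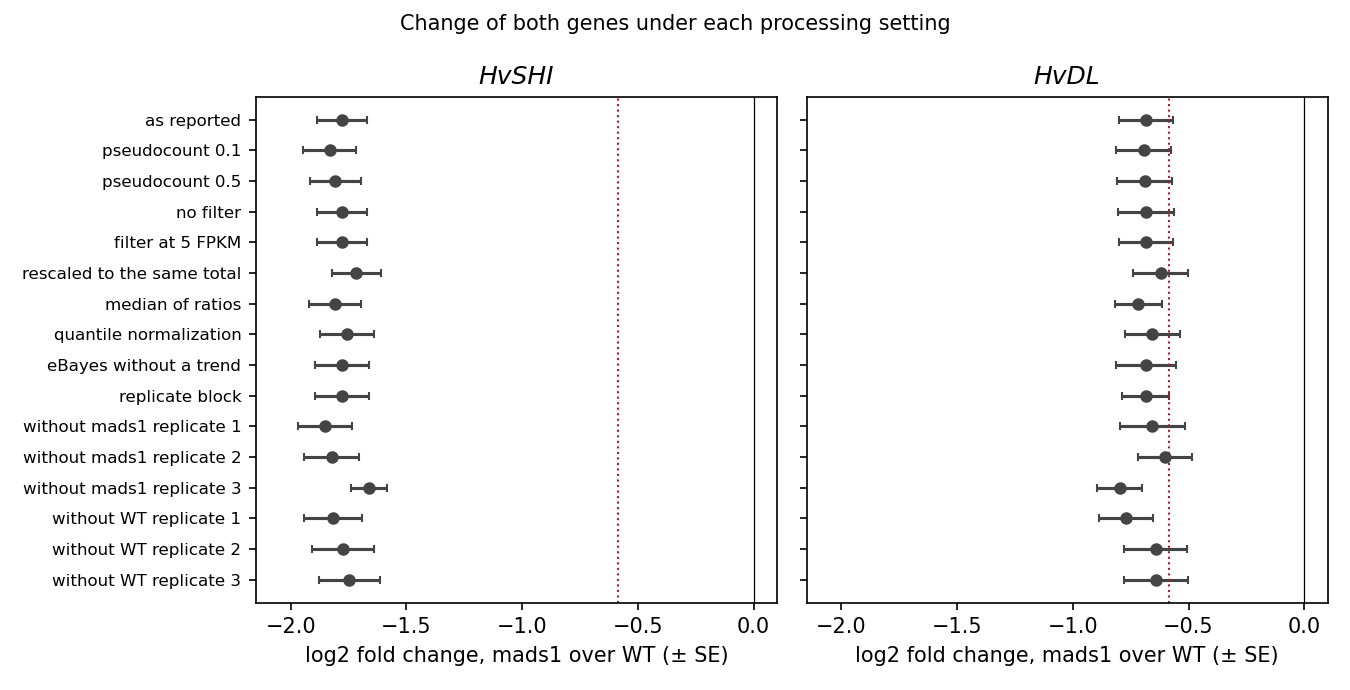
Log2 fold change (*mads1* over WT) with its standard error for *HvSHI* (left) and *HvDL* (right), as reported and under each of 15 alternatives, with a dotted line at the limit on fold change, a fall of 0.585. All points lie left of the line, those of *HvSHI* between -1.85 and -1.66 and those of *HvDL* between -0.80 and -0.60. The error bars of *HvDL* cross the line under most settings.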

How the data were processed

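RNA-seq libraries of 3 *mads1* and 3 WT samples were trimmed with Trimmomatic and mapped to the barley genome, and the authors deposited FPKM per gene from RSEM 1.3.3 (per the labels and the methods). The aligner and the annotation release are not given in the sources used here. Identifiers are those of Morex version 3. No column was left out. Read counts were not used here, so the DESeq2 test that the authors ran was not repeated. Samples were grouped by genotype and replicate number in the labels.

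log2(FPKM + 1) was tested with limma 3.58.1 in R 4.3.3 (eBayes with a trend), fitted over the 17996 genes that reached 1 FPKM in 3 or more libraries. The fit was tested on simulated data. Ratios and exact permutation tests used SciPy 1.17.1. p-values measure the spread between pools of plants. The genes, lists and rules were chosen with earlier results of these data known. The genes named are both members, the study's flower development group and, most correlated with each member, 3 genes of the study's annotated list of bound and changed genes and 1 gene of the whole table. YABBY and SHI family members, *HvMADS1*, *HvAP2* and further organ markers were to be named through a reference table, which could not be joined to these identifiers, so they are not analysed here. Probe and guide sequences are from the study's oligo list. Alternatives were pseudocounts of 0.1 and 0.5, no filter, a filter at 5 FPKM, 3 other scalings, no trend, a replicate block, calls by adjusted p only, and omission of each replicate. The counts of neighbouring genes under the alternatives were added after seeing the data.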

Additional observations from a re-analysis of the deposited data

How the results depend on the processing

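*HvSHI* and *HvDL* kept their direction and their call under all 15 alternatives of the fit. The log2 difference in the ratio of *HvSHI* to *HvDL* moved by less than the SD pooled over both genotypes (0.29) under its 11. Omission of any single *mads1* replicate moved it by more than the SD among WT replicates (0.09). By limma's adjusted p only, 7779 genes were called (4011 down and 3768 up in *mads1*), where the rule with the fold limit called 3794 (2607 down and 1187 up). With the filter at 5 FPKM, 769 genes were higher; fewer genes were tested. When single replicates were omitted, between 3402 and 4158 genes were called, of which 2380 to 2698 were down and 1022 to 1460 up. The median log2 fold change over genes tested was 0.05 as reported and 0.11 after rescaling to the same total or quantile normalization. With the replicate number as a block, the log2 fold changes stayed at -1.78 for *HvSHI* (adjusted p = 0.000105 from limma) and -0.69 for *HvDL* (0.00258), and 3781 genes were called. Deviations of same-numbered samples had r of -0.07, -0.28 and 0.20 across 17996 genes, those of other pairs -0.34 to 0.40 (*mads1* replicate 2 with WT replicate 1), so the numbers were not taken as pairs. Of 180 refits of the other 12 named genes, 172 kept their call, 7 lost it and 1 gained it. The unknown depth limits how finely low values can be compared. The exact tests cannot go below 0.1, so the unequal fall of *HvSHI* and *HvDL* rests on values that do not overlap. How often the ratios of other gene pairs also do not overlap was not computed, so this is weak support.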
